A study of Mus musculus with 5 samples.

Results

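Genes of the G2/M phase, the kinetochore and the spindle were followed in mouse 32D cells, which grow as myeloid progenitors, carrying 1 of 5 FLT3-ITD constructs. The set is a list of 38 genes given by name, with no threshold on their values, but chosen with earlier results of these data known. Of these, 37 had a probe set among the 18193 genes of the array, and the platform annotation used here lists none for Ccnb1, the mitotic cyclin B1. Where a gene had several probe sets, the one highest on average was used. The kinase receptor FLT3 normally answers to a ligand, and with an internal tandem duplication (ITD) it is active in its absence. The constructs were ITD613, ITD78, ITD598, ITD602 and ITD611, named as in the labels, which do not say what the numbers mean, whether the receptor is of mouse or human origin, or whether each line is a clone or a pool. Every line had been stably transduced with a retrovirus, starved for 3 h and then exposed for 1 h to a tyrosine kinase inhibitor that is not named. Total RNA of each line was hybridised to 1 Affymetrix mouse expression array. Cells without a construct and cells without the inhibitor were not analysed here. With 1 array per construct no difference could be tested, no p-value is given, and an SD printed below is the spread over 4 constructs (or 3, where stated), not over replicates. In RNA of a whole culture, fewer cells in mitosis and less RNA per cell cannot be told apart.

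During G2 the cyclin-dependent kinase Cdk1 pairs with A- and B-type cyclins and, once activated by Cdc25 phosphatases, drives entry into mitosis. The spindle then attaches chromosomes at their kinetochores, the spindle checkpoint holds anaphase back until all are attached, and the anaphase-promoting complex (APC/C) with Cdc20 marks securin and cyclins for destruction so that chromatids part and the cell divides. Most of these genes are transcribed late in the cycle and their transcripts are scarce in resting cells, which is why Mki67 and Top2a serve as markers of dividing cells.

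Many promoters of late cell cycle genes hold a cell cycle genes homology region (CHR), to which the MuvB core of the DREAM complex binds, and CCAAT boxes, to which NF-Y binds. Promoters from 250 bases before to 50 bases after the transcript start (RefSeq, build GRCm38.p6) were available for 32 of the 38 genes, and Ccna2, Cdc25c, Aurkb, Incenp, Tpx2 and Kif20a had no entry. On either strand, TTTGAA was found in 21 of the 32 (65.6%), against 20.2% of 27025 genes with a promoter entry and 14.2% of the 7890 of these that passed the expression filter described below. CCAAT was found in 24 (75%), against 41.1% of all and 42.7% of the expressed genes, and both motifs in 18 (56.2%), against 8.97% and 6.96%. The matches to TTTGAA lay close to the transcript start: 19 of the 32 genes (59.4%) had one within 50 bases on either side, against 5.72% of all genes and 3.84% of the expressed ones. Plk4, Mad2l1, Birc5, Nuf2 and Pttg1 had neither motif in this window. A match is a run of letters and not a shown binding site.

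**Figure D1:**
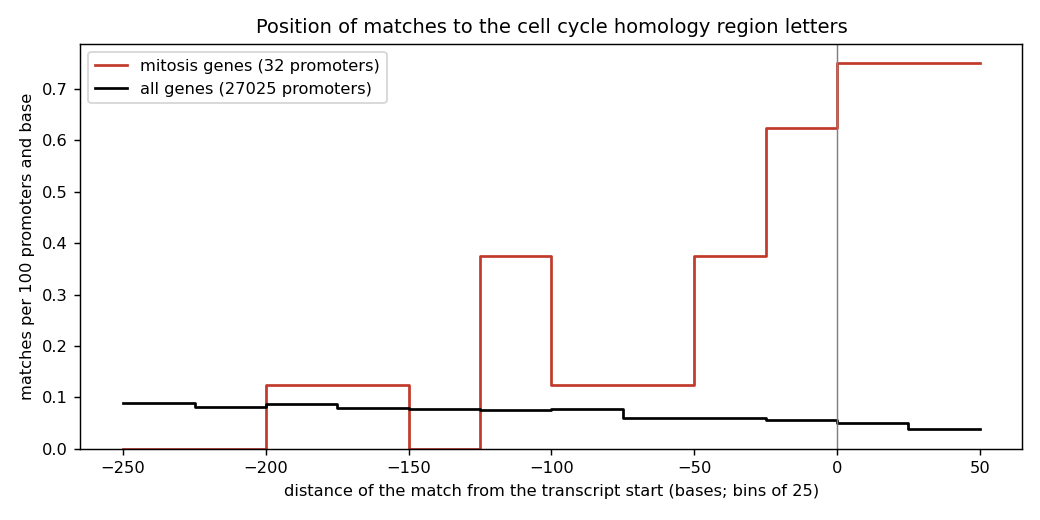
Matches to the CHR letters per 100 promoters and base (y axis) against distance from the transcript start in bases (x axis, bins of 25), for 32 mitosis genes (red) and 27025 genes (black). The matches of the mitosis genes pile up around and just after the start, with 6 matches in each of the last 2 bins, whereas those of all genes thin out towards it.

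The promoters of 6 genes are shown because the differences described below turn on these genes: Cenpf, Kif11 and Ndc80 (the highest differences on ITD613 among genes with an entry), Plk1 (low on ITD78), and Mad2l1 and Nek6 (the lowest differences on ITD613). Capitals mark TTTGAA and CCAAT or their complements TTCAAA and ATTGG, and each sequence runs 5′ to 3′ on the strand of the gene. They lie at chr1:189688037-189688336 (minus strand), chr19:37376132-37376431 (plus strand), chr17:71526808-71527107 (minus strand), chr7:122159185-122159484 (plus strand), chr6:66534971-66535270 (plus strand) and chr2:38511447-38511746 (plus strand).
Cenpf: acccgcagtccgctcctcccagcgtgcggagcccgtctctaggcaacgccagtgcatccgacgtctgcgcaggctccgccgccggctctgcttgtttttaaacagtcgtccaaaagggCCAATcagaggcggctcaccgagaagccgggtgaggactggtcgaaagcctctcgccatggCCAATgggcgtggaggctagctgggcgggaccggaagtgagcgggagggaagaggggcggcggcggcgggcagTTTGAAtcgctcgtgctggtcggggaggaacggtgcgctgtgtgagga
Kif11: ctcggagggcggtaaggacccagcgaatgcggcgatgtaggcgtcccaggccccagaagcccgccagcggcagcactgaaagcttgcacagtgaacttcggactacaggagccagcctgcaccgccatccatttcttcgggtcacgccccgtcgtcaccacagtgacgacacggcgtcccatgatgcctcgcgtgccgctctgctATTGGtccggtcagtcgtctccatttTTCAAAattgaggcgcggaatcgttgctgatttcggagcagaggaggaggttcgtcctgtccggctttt
Ndc80: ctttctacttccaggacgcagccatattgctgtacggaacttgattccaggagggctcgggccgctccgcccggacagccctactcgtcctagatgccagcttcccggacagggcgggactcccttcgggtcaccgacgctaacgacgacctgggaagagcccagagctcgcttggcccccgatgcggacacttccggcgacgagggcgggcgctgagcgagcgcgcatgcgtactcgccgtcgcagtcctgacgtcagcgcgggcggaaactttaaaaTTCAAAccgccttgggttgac
Plk1: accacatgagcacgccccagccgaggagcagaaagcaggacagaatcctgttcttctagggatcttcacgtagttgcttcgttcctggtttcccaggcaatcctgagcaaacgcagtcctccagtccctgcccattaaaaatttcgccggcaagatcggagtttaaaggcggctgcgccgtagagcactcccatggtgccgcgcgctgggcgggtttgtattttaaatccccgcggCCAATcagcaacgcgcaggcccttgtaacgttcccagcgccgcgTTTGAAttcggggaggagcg
Mad2l1: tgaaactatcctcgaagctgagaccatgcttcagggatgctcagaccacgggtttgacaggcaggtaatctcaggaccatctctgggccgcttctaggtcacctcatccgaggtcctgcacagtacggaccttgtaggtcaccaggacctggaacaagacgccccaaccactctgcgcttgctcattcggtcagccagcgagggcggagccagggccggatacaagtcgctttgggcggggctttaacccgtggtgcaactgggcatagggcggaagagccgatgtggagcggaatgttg
Nek6: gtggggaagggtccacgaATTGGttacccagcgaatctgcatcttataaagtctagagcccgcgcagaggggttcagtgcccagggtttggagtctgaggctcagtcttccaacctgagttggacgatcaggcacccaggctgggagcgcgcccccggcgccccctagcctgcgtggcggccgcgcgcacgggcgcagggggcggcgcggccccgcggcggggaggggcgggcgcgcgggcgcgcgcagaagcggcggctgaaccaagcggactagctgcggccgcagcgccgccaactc
The match to TTTGAA began 2 bases after the start in Cenpf, 19 bases before it in Kif11 (position -19), and 29 and 30 bases after it in Ndc80 and Plk1. Mad2l1 and Nek6 had none, and Nek6 had 1 CCAAT box.

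The values are log2 values, so that a difference of 1 is 2-fold. A gene passed the expression filter where its highest value reached 2.75, the 60th percentile of all values, as did 9621 genes and all 37 measured mitosis genes. Below 3.74 the same value recurs across many probe sets of one array, so that differences there cannot be sized, and Nek6 on the ITD613 array is the 1 such value among the 185 used for the mitosis genes. At least 2 arrays shared the same value in 6 of the 37 genes, against 28.8% of all genes passing the filter. These were Plk1, Aurkb, Incenp, Ndc80, Anln and Ube2c, and an SD over arrays that share a value may understate the spread. Of the 10 genes listed as markers of myeloid progenitors, Ptprc, Spi1, Myb, Il3ra, Csf2rb, Mpo and Prtn3 passed the filter, whereas Kit, Elane and Cebpa were below it on every array. Between the most alike arrays, ITD598 and ITD611, the 37 differences had an SD of 0.10, which serves as a yardstick for what follows. It holds any real difference between these constructs. As the smallest SD of any pair it is a low yardstick, and over all genes the SD of this pair was 0.18.

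Mitosis genes were higher on the ITD613 array than on the others, most of them by less than 2-fold. The 37 genes had a median difference of 0.32 (ITD613 minus the mean of the other 4 arrays), against 0.01 over all 9621 genes, and 32 of the 37 lay above that mean, against 52.2% of all genes. ITD613 had the highest value of the 5 arrays in 27 of the 37 (73.0%), where the share over all genes was 35.7%, and the lowest in 3, namely Nek6, Mad2l1 and Cdc20, where it was 29.4%. At least 0.3 above the mean of the other 4 arrays were 21 genes (56.8%; 23.2% of all genes), and at least 0.3 below it were Nek6 and Mad2l1 (5.41%; 18.2% of all genes). The value of 0.3 falls among the members, 10 of which lay between 0.3 and 0.4, and with the arrays shifted to equal medians, which lowered the ITD613 differences by 0.07, 11 genes remained at least 0.3 above and 2 below. The shares over all genes were then 18.7% above and 23.0% below. With all probe sets of a gene averaged, the median of the 37 was 0.19, 14 genes in place of 21 were at least 0.3 above, and none was 2-fold higher. The share over all genes was not computed in that setting. At least 0.3 above each of the other 4 arrays were Mki67, Top2a, Plk4, Birc5, Cenpe, Cenpf, Ndc80, Kif11 and Kif2c (9 of 37, 24.3%; 14.5% of all genes), and at least 0.3 below each was Nek6 (2.70%; 9.40% of all genes). The range over the 5 arrays reached 1 in Nek6 and Cenpf (5.41%; 10.4% of all genes). At least 2-fold higher was Cenpf alone (3.18% of all genes) and at least 2-fold lower Nek6 alone (2.35%).

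**Figure D2:**
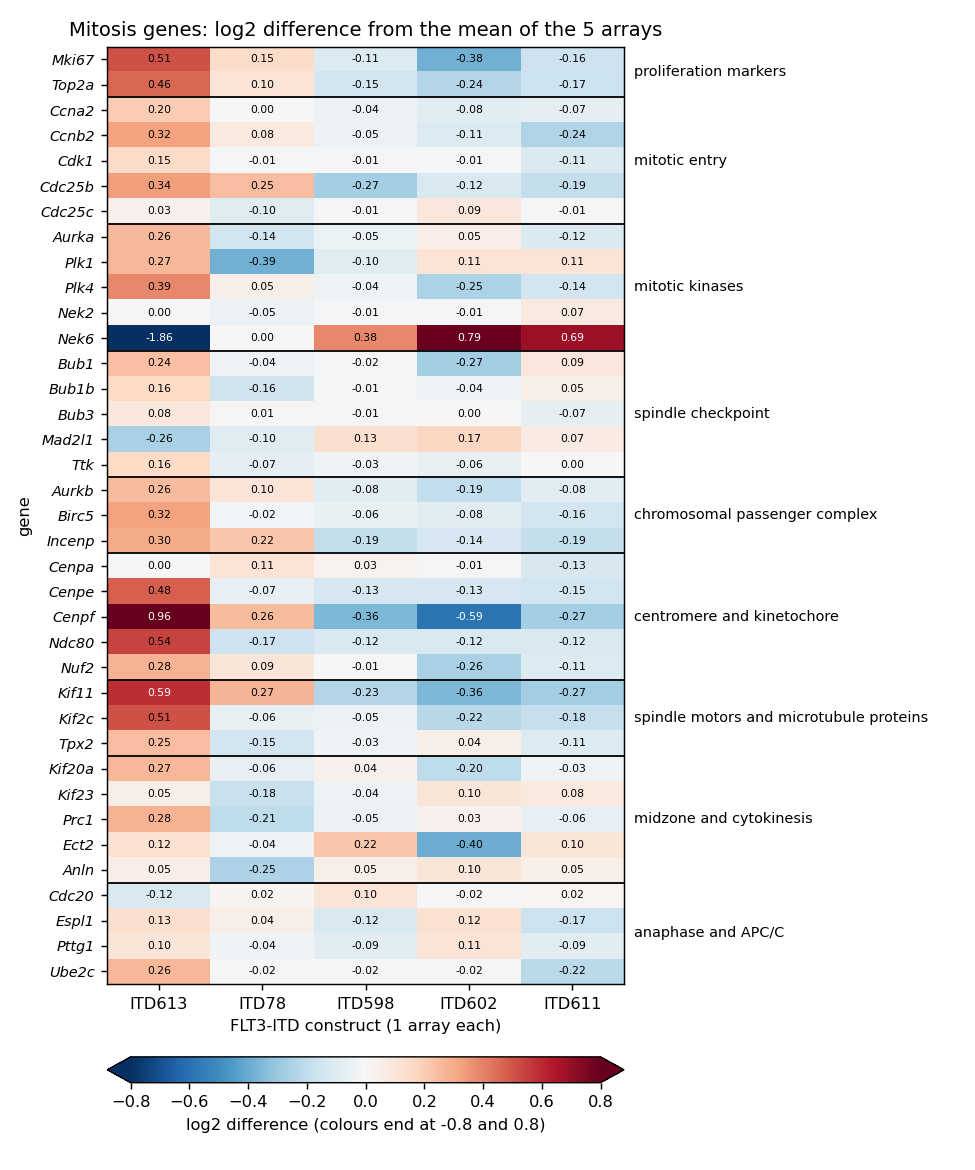
Heat map of the 37 measured mitosis genes (rows, grouped by role) on the 5 arrays (columns, 1 array per construct), coloured and labelled by the log2 difference of each value from the gene's mean over the 5 arrays. The ITD613 column is red for most genes and dark blue for Nek6, and the ITD78 column is red for Kif11, Cenpf and Cdc25b and blue for Plk1 and Anln.

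**Figure D3:**
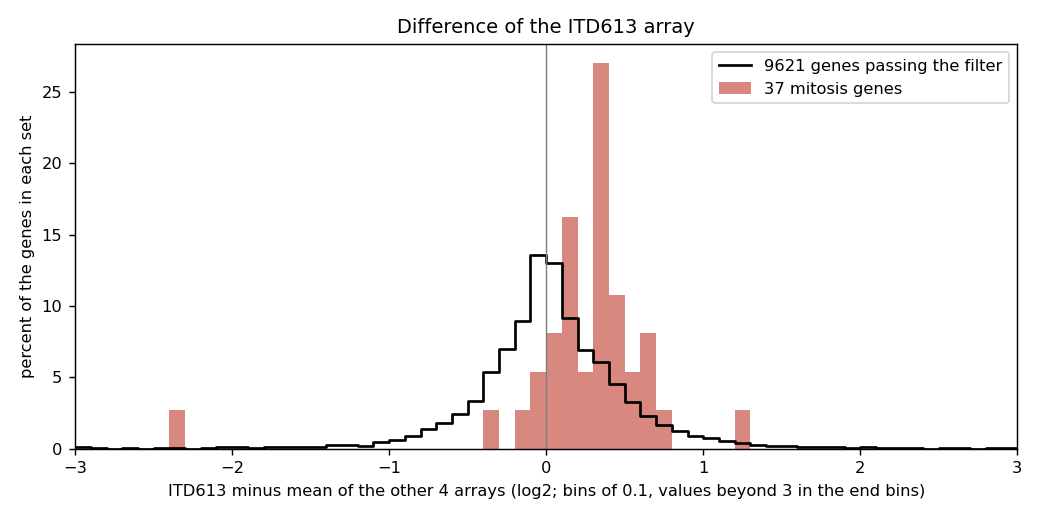
Distribution of the log2 difference between ITD613 and the mean of the other 4 arrays (x axis, bins of 0.1) for the 37 mitosis genes (red bars) and the 9621 genes that passed the filter (black line), as percent of each set. The mitosis genes centre on 0.32 and all genes on 0.01, and Nek6 stands alone at -2.32.

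The 2 proliferation markers were among the genes with the larger differences. Mki67, which encodes the Ki-67 antigen that coats mitotic chromosomes, read 10.56 on ITD613, against 10.19, 9.94, 9.67 and 9.88 on ITD78, ITD598, ITD602 and ITD611. ITD613 was thus 1.56-fold above the mean of the other 4 (9.92 ± 0.22, SD) and was the highest of the 5 arrays. Top2a, the topoisomerase that untangles sister chromatids, read 10.67, against 10.31, 10.06, 9.98 and 10.04, a difference of 0.57. In both genes ITD78 came second on these probe sets. A second Top2a probe set read 6.56 on ITD613, against 6.80, 6.33, 6.10 and 6.43, so that ITD78 was highest there and the ITD613 difference was 0.15.

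Genes of mitotic entry differed less. Ccnb2, a B-type cyclin, read 9.10 on ITD613, against 8.86, 8.73, 8.67 and 8.54 on ITD78, ITD598, ITD602 and ITD611. Ccna2, the cyclin of S phase and G2, read 8.73, against 8.52, 8.48, 8.44 and 8.45, and Cdk1 itself read 9.02, against 8.86, 8.86, 8.86 and 8.76. These differences of 0.25 and 0.19 were small but stood beside SDs of 0.04 and 0.05 over the other 4 arrays. Cdc25b, a phosphatase that activates Cdk1 at the centrosome, was high on ITD613 and on ITD78 (5.34 and 5.25, against 4.73, 4.88 and 4.82 on ITD598, ITD602 and ITD611). Its relative Cdc25c lay between 5.00 and 5.19 on all 5 arrays, with ITD613 (5.14) inside the range of the others.

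The kinetochore and centromere genes held the highest difference of the set. Cenpf, a large coiled-coil protein of the outer kinetochore, read 7.12 on ITD613, against 6.41, 5.80, 5.57 and 5.89 on ITD78, ITD598, ITD602 and ITD611. That is 2.30-fold above the mean of the other 4 (5.92 ± 0.36), and the gap to ITD78, the nearest array, was 0.71. Ndc80 and Nuf2 encode partners in the complex that grips spindle microtubules. Ndc80 read 6.15 on ITD613, against 5.45, 5.49, 5.49 and 5.49, a difference of 0.68. ITD598, ITD602 and ITD611 shared the same Ndc80 value, so the SD of 0.02 over the other 4 does not size their spread. Nuf2 read 6.94, against 6.75, 6.65, 6.40 and 6.55, a difference of 0.35 beside an SD of 0.15 over the other 4. Cenpe, a kinesin that carries chromosomes to the spindle equator, read 7.59, against 7.05, 6.98, 6.98 and 6.96. Cenpa, the histone H3 variant that marks centromeres, was the exception, with 8.77 on ITD613 inside the range of 8.65 to 8.89 on the other arrays.

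The spindle motor genes Kif11 and Kif2c followed the kinetochore genes. Kif11, the kinesin that pushes the spindle poles apart, read 8.01 on ITD613, against 7.69, 7.19, 7.06 and 7.15 on ITD78, ITD598, ITD602 and ITD611 (1.67-fold above the mean of the other 4). Kif2c, which takes microtubules apart at centromeres, read 7.90, against 7.33, 7.34, 7.17 and 7.21 (1.56-fold). ITD78 lay between ITD613 and the remaining arrays for Kif11 and was level with ITD598 for Kif2c. Tpx2, which activates Aurora A on the spindle, read 7.13, against 6.73, 6.86, 6.93 and 6.77, a difference of 0.31.

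The chromosomal passenger complex corrects faulty attachments and steers cytokinesis, and the 3 of its genes in the set were highest on ITD613. Cdca8 (borealin), a further core subunit, is counted among the other kinetochore and centromere genes. Aurkb, its kinase, read 7.72, against 7.57, 7.38, 7.27 and 7.38 on ITD78, ITD598, ITD602 and ITD611. Birc5 (survivin) read 10.34, against 10.00, 9.96, 9.93 and 9.86. Incenp, the scaffold of the complex, read 9.72, against 9.65, 9.23, 9.29 and 9.23. The differences from the mean of the other 4 were 0.32, 0.40 and 0.37, and for Incenp the gap to ITD78 was only 0.07.

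Among the mitotic kinases, Plk4, the kinase that starts centriole duplication, read 8.80 on ITD613, against 8.46, 8.37, 8.16 and 8.27 on ITD78, ITD598, ITD602 and ITD611. Aurka (Aurora A) read 7.00, against 6.60, 6.69, 6.79 and 6.63, and Plk1, which acts from entry to cytokinesis, read 6.71, against 6.05, 6.34, 6.55 and 6.55. For Plk1, ITD613 was only 0.16 above ITD602 and ITD611, and ITD78 was lowest. Nek2, a kinase of centrosome separation, was flat, between 7.62 and 7.73 on all arrays.

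Of the 5 spindle checkpoint genes, 4 were higher on ITD613 and Mad2l1 was lower, but for Bub3 the direction turned with all its probe sets averaged (-0.35). Bub1 read 8.54 on ITD613, against 8.26, 8.28, 8.03 and 8.39 on ITD78, ITD598, ITD602 and ITD611, and the differences of Bub1b, Ttk and Bub3 were 0.20, 0.20 and 0.10. Mad2l1, the checkpoint protein that captures Cdc20, read 9.02 on ITD613, against 9.18, 9.41, 9.45 and 9.35. It was 0.33 below the mean of the other 4 (9.35 ± 0.12; ITD613 minus the mean -0.33), with ITD78 again next to ITD613.

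Genes of the spindle midzone, cytokinesis and anaphase showed smaller differences. Prc1, which bundles midzone microtubules, read 7.89 on ITD613, against 7.40, 7.56, 7.64 and 7.55 on ITD78, ITD598, ITD602 and ITD611, and the midzone kinesin gene Kif20a read 7.35, against 7.02, 7.12, 6.88 and 7.05. Ube2c, the ubiquitin-conjugating enzyme of the APC/C, read 9.98, against 9.70, 9.70, 9.70 and 9.50. The other members of these groups differed by less than 0.2: Ect2, Anln and Kif23, which build and constrict the cleavage furrow, by 0.15, 0.07 and 0.06 (Kif23 -0.09 with all its probe sets averaged), separase (Espl1) by 0.16 and securin (Pttg1) by 0.12. Cdc20 was slightly lower on ITD613 (9.61, against 9.75, 9.83, 9.71 and 9.75; difference -0.16). The role medians ran from 0.64 (spindle motors), 0.60 (centromere and kinetochore) and 0.60 (proliferation markers) to 0.15 (midzone and cytokinesis) and 0.14 (anaphase and APC/C), over 2 to 5 genes each.

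Nek6 went against the rest of the set by a wide margin. Nek6, a kinase that acts in spindle assembly, read 3.12 on ITD613, against 4.98, 5.36, 5.77 and 5.66 on ITD78, ITD598, ITD602 and ITD611. All arrays but ITD613 lay above the range of shared values, and with values below 3.74 raised to that level the difference was -1.70 in place of -2.32. A further Nek6 probe set read 2.58, against 3.35, 3.81, 4.10 and 3.85, in the same order of arrays but largely within the low range. ITD78 was the second lowest array, 0.62 below the mean of ITD598, ITD602 and ITD611 (4.98 against 5.60 ± 0.21, SD of 3 arrays; ITD78 minus the mean -0.62).

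ITD78 came next to ITD613 in some mitosis genes and was the lowest array in others, in several of these by a small gap. Over the 37 genes its median difference from the mean of ITD598, ITD602 and ITD611 was 0.03, with 21 genes above and 16 below. At least 0.3 above that mean were Mki67, Cdc25b, Incenp, Cenpf and Kif11 (5 of 37, 13.5%; 9.53% of all genes), and at least 0.3 below it were Plk1, Nek6 and Anln (3 of 37, 8.11%; 12.5% of all genes). Both shares were close to those over all genes. ITD613 was highest with ITD78 second in 14 genes (37.8%; 16.1% of all genes), which were Mki67, Top2a, Ccna2, Ccnb2, Cdc25b, Plk4, Bub3, Aurkb, Birc5, Incenp, Cenpe, Cenpf, Nuf2 and Kif11. The reverse order, ITD613 lowest with ITD78 next, was that of Nek6 and Mad2l1 (5.41%; 16.6% of all genes). Against the mean of the other 4 arrays, ITD613 included, ITD78 was above in 14 of 37 (42.7% of all genes), at least 0.3 higher in Cdc25b, Cenpf and Kif11 (8.11%; 5.96% of all genes) and at least 0.3 lower in Plk1 and Anln (5.41%; 8.69% of all genes). It was the highest array for Cenpa alone (2.70%; 11.3% of all genes), and none of the 37 was 2-fold higher (0.374% of all genes) or lower (0.457%).

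In 11 genes ITD78 had the lowest value of the 5 arrays (29.7%; 17.5% of all genes): Cdc25c, Aurka, Plk1, Nek2, Bub1b, Ttk, Ndc80, Tpx2, Kif23, Prc1 and Anln. With the arrays shifted to equal medians there were 8, and the share over all genes was 11.3%. Some gaps to the next array were small. Ttk read 6.74 on ITD78 and 6.75 on ITD602, and Nek2 read 7.62 on ITD78 and 7.65 on ITD598. Ndc80 read 5.45 on ITD78 and 5.49 on ITD598, ITD602 and ITD611. Plk1 read 6.05 on ITD78, against 6.48 ± 0.12 on ITD598, ITD602 and ITD611 (SD of 3 arrays), the largest such gap after Nek6. Anln, the furrow protein anillin, read 7.55, against 7.86 ± 0.03, and its other probe set lay below 3.74 on all arrays. Kif23 read 6.53, against 6.76 ± 0.08, and Prc1 read 7.40, against 7.58 ± 0.05. Further probe sets above 3.74 did not repeat the low ITD78 value in either gene. For Prc1 the second one read 6.24 on ITD78, against 6.34, 6.19 and 6.21 on ITD598, ITD602 and ITD611, and for Kif23 it read 3.99, against 3.99, 3.84 and 4.34. Nor was ITD78 lowest in the second probe set of Tpx2 (5.72, against 5.70 on ITD598). The same held for Cdc25c (4.62, against 4.57 on ITD598 and 4.46 on ITD611). In Bub1b and Nek2 the second probe set did have its lowest value on ITD78 (7.21 and 5.84). ITD78 was above the 3 arrays for Kif11 (7.69, against 7.13 ± 0.07) and Incenp (9.65, against 9.25 ± 0.03).

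**Figure D4:**
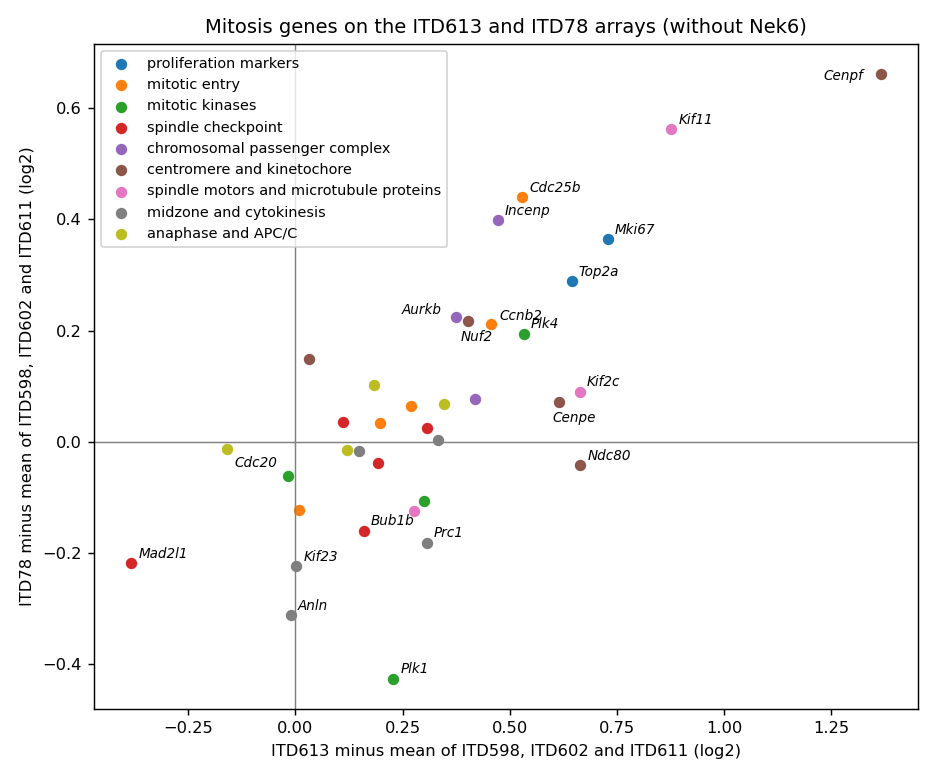
Each point is 1 of 36 mitosis genes (Nek6 left out for scale), placed by the log2 difference from the mean of ITD598, ITD602 and ITD611 on ITD613 (x axis) and on ITD78 (y axis) and coloured by role. Both axes share the same 3 arrays as their base, so the slope of the cloud is no result; Cenpf and Kif11 lie at the upper right, and Plk1 and Anln lie lowest on the ITD78 axis.

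The remaining 3 constructs differed little among themselves, and ITD602 was the lowest of the 5 arrays in 12 genes (32.4%; 17.3% of all genes). These were Mki67, Top2a, Ccna2, Plk4, Bub1, Aurkb, Cenpf, Nuf2, Kif11, Kif2c, Kif20a and Ect2. Ect2, the exchange factor that activates RhoA for cytokinesis, stood out, with 6.73 on ITD602, against 7.25, 7.08, 7.35 and 7.22 on ITD613, ITD78, ITD598 and ITD611. Bub1 and Cenpf were also at least 0.3 lower on ITD602 than on ITD611 (3 of 37, 8.11%; 5.39% of all genes). The title of the ITD602 array carries another date-like string than the other 4, so a separate run and the construct itself cannot be told apart. ITD602 lay above the mean of the other 4 arrays in 11 of the 37 genes (55.4% of all genes). It was at least 0.3 lower in Mki67, Plk4, Bub1, Cenpf, Nuf2, Kif11 and Ect2 (7 of 37, 18.9%; 10.6% of all genes) and at least 0.3 higher in Nek6 (2.70%; 14.1% of all genes). Without ITD613 in the mean, 3 genes in place of 7 were at least 0.3 lower, and Nek6 was 0.43 higher. It was the highest array in Cdc25c, Nek6, Mad2l1, Kif23, Anln and Pttg1 (6 of 37, 16.2%; 29.5% of all genes). None of the 37 was 2-fold higher (0.676% of all genes) or 2-fold lower (0.551%) on ITD602.

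ITD611 lay above the mean of the other 4 arrays in 10 of 37 genes (45.2% of all genes) and ITD598 in 7 (48.5%). ITD611 was the lowest array in 9, namely Ccnb2, Cdk1, Bub3, Birc5, Cenpa, Cenpe, Espl1, Pttg1 and Ube2c (24.3%; 17.8% of all genes), and the highest in Nek2 (2.70%; 8.33% of all genes). ITD598 was lowest in Cdc25b (2.70%; 12.4% of all genes) and highest in Ect2 and Cdc20 (5.41%; 10.7% of all genes). At least 0.3 lower were Cenpf and Kif11 on ITD611 (5.41%; 8.87% of all genes) and Cdc25b and Cenpf on ITD598 (5.41%; 5.48% of all genes). Nek6 was at least 0.3 higher on both, where the shares over all genes were 5.00% on ITD611 and 5.55% on ITD598. These calls rest on ITD613 in the mean: without it none of the 37 was at least 0.3 lower on ITD611 or ITD598, and the differences were -0.04 (Cenpf) and -0.16 (Kif11) on ITD611 and -0.25 (Cdc25b) and -0.16 (Cenpf) on ITD598. Without ITD613, Nek6 was 0.296 above the mean on ITD611 and its difference on ITD598 was -0.11. None of the 37 was 2-fold higher on ITD611 (0.291% of all genes) or ITD598 (0.301%), or 2-fold lower (0.322% and 0.146%). Over ITD598, ITD602 and ITD611 the range reached 0.3 in Nek6, Bub1, Cenpf and Ect2 (10.8%; 24.7% of all genes). In the 3 pairs among these arrays the SD of the 37 differences was 0.10 to 0.18, and in the 4 pairs with ITD613 it was 0.41 to 0.61 (0.21 to 0.37 without Nek6). Over all genes the SD was 0.18 to 0.23 in the 3 pairs and 0.42 to 0.63 in the 4 pairs. The wider spread against ITD613 was thus not particular to the mitosis genes.

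Different probe sets of a gene are the only repeat measurement in these data, and they share the RNA and the array. Probe sets above 3.74 on all 5 arrays numbered 59 of 83, and 18 genes had more than 1 of these. In 12 of the 18 all such probe sets gave the same sign of the ITD613 difference, among them Cenpe (0.57 and 0.60), Kif11 (0.48 and 0.74), Kif2c (0.43 and 0.64), Aurkb (0.31 and 0.32), Ccna2 (0.25 both) and Cdc20 (-0.63 to -0.16). The 6 with mixed signs were Bub3 (-1.01 to 0.61), Incenp (-0.31 to 0.56), Plk4 (-0.10 to 0.48), Cenpa (-0.01 to 0.42), Kif23 (-0.22 to 0.06) and Pttg1 (-0.13 to 0.15). The median SD between probe sets of a gene was 0.15. The other 2 probe sets of Cenpf lay below 3.74 on all arrays. Mki67, Ndc80, Mad2l1, Plk1, Birc5 and Ect2 had 1 probe set each.

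Other genes of mitosis, in lists that share no gene with the 37, had a median difference on ITD613 of 0.29 over 135 genes passing the filter. Of these, 66 were at least 0.3 higher and 9 at least 0.3 lower (background 23.2% and 18.2%). The same background shares stand beside the counts of each list below. These lists too were chosen with earlier results of these data known, so they are no independent support. Among 32 other kinetochore and centromere genes, 19 were at least 0.3 higher and none lower, with a median of 0.41. Mis12, a core kinetochore subunit, read 6.26 on ITD613, against 4.84 ± 0.20 on the other 4, and Oip5, which helps load Cenpa onto centromeres, read 4.79, with 3 of the other 4 arrays below 3.74, so that its difference cannot be sized. Cenpc1, which links the centromere to the outer kinetochore, read 6.60, against 5.54 ± 0.30. Of 19 other mitotic kinesins and spindle proteins, 11 were at least 0.3 higher and none lower (median 0.38), and the spindle proteins Nusap1 and Spag5 and the kinesin Kif18b read 8.89, 6.83 and 6.88, against 8.05 ± 0.21, 6.18 ± 0.06 and 6.19 ± 0.12.

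Of 18 condensin and cohesin genes, 10 were at least 0.3 higher and 1 lower (median 0.32), with the condensin subunit genes Smc4 at 9.63, against 8.83 ± 0.24, and Ncapd3 at 8.27, against 7.79 ± 0.27. Esco2, which locks cohesin onto replicated chromosomes, read 7.99, against 7.08 ± 0.35, and ITD602 had the lowest value of these 3 genes. Among 21 regulators of mitotic entry and transcription, 10 were at least 0.3 higher and 1 lower (median 0.26). E2f2 and E2f8, an activator and a repressor of cell cycle transcription, read 7.60 and 8.96 on ITD613, against 5.99 ± 0.54 and 8.13 ± 0.24, with ITD78 second in both (6.79 and 8.47). Cdkn3, a phosphatase that acts on cyclin-dependent kinases, read 4.73, against 3.88 ± 0.12. ITD598 and ITD602 shared its value of 3.88 and ITD611 (3.73) lay below 3.74, so that neither the Cdkn3 difference nor its SD can be sized. Foxm1 and Mybl2, activators of late cell cycle genes singled out here once their values were known, were not high on ITD613: Foxm1 read 4.14, against 4.47 ± 0.33, and Mybl2 read 5.59, against 5.69 ± 0.19, both with their highest value on ITD602 (4.95 and 5.91).

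Of 18 other APC/C genes, 7 were at least 0.3 higher and 2 lower (median 0.16). Fbxo5, the APC/C inhibitor Emi1, read 8.47 on ITD613, against 7.66 ± 0.19, and the catalytic subunit gene Anapc11 read 6.22, against 5.53 ± 0.17, whereas Anapc15 read 5.77, against 6.45 ± 0.19. Centrosome genes went both ways, 6 higher and 2 lower of 13 (median 0.21), with gamma-tubulin (Tubg1) at 6.93, against 6.35 ± 0.15, Pcnt (pericentrin) at 6.20, against 5.69 ± 0.23, and Cep63 at 4.87, against 5.51 ± 0.17. Tubulin genes went both ways too, 2 higher and 2 lower of 6 (median 0.08). Tuba8 read 4.11, against 7.05 ± 0.42, and Tubb6 read 5.79, against 6.31 ± 0.32, while Tuba1a read 8.26, against 7.81 ± 0.21. Among 8 other cytokinesis genes 1 was higher and 1 lower (median -0.02), namely the citron kinase gene Cit (5.67, against 5.22 ± 0.13) and Septin9 (7.12, against 7.61 ± 0.24), and Rhoa read 8.63, against 8.73 ± 0.16.

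DNA replication genes, which act one step earlier in the cycle, had a median difference of 0.06 on ITD613 over 42 genes, beside 0.32 for the mitosis genes. At least 0.3 higher were 11 of the 42, and none was at least 0.3 lower (background 23.2% and 18.2%). ITD613 was the highest array in 19 of the 42 and in 27 of the 37 mitosis genes, where the share over all genes was 35.7%. Whether the lists differ was not tested. Ccne2, a cyclin of the G1/S step, read 8.24 on ITD613, against 7.55 ± 0.26, Tyms (thymidylate synthase) read 5.10, against 4.91 ± 0.37, and the helicase subunit gene Mcm4 read 9.15, against 9.32 ± 0.40.

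**Figure D5:**
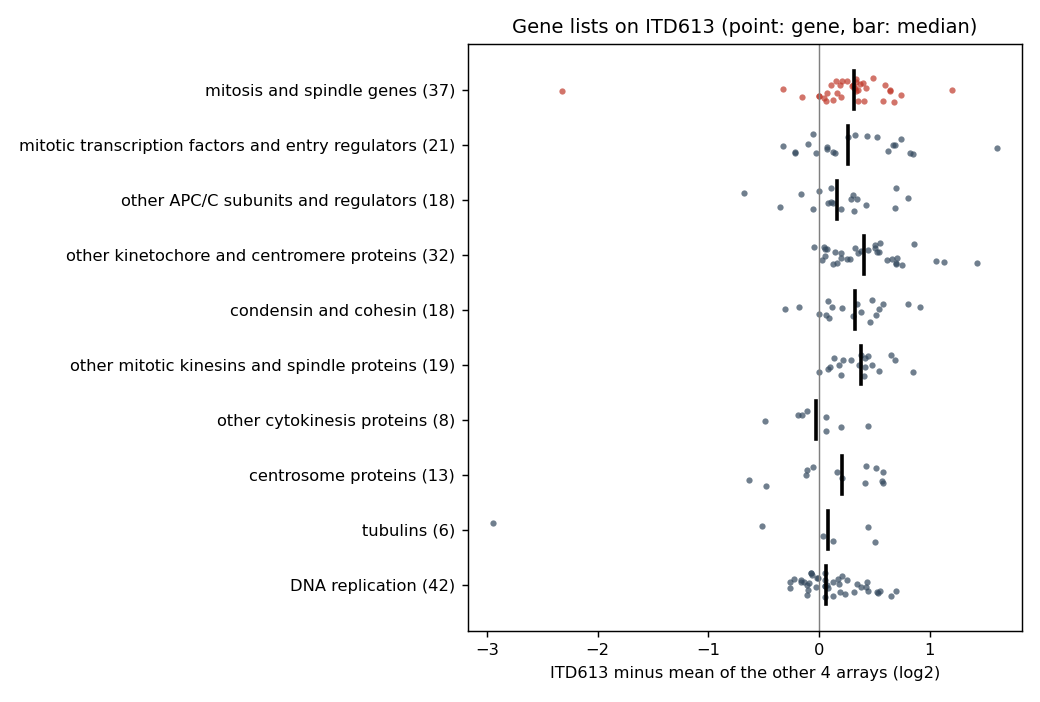
Log2 difference between ITD613 and the mean of the other 4 arrays (x axis) for the 37 mitosis genes (red points) and 9 further gene lists (dark points, number of genes passing the filter in parentheses), with the median of each list as a black bar. Medians of 0.41 for other kinetochore genes and 0.38 for other kinesins and spindle proteins lie to the right, and those of 0.06 for DNA replication and -0.02 for other cytokinesis genes lie near 0.

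Markers of several blood lineages also differed between the arrays, and their part in the result was not tested. The mean levels that follow are over all measured markers of a list, those below the filter included, and means in the low range cannot be sized. Over 6 measured erythroid markers the mean level was 4.92 on ITD613 and 4.35 on ITD78, against 3.41, 3.28 and 3.37 on ITD598, ITD602 and ITD611, with Alas2 and Hba-a1 below the filter on every array. For 6 monocyte and macrophage markers the means were 1.96 and 2.32, against 3.31, 3.52 and 3.41, with Cd68, Cx3cr1 and Mrc1 below the filter on every array. Of the other three, Adgre1 read 2.68 and 3.00, against 6.51, 7.21 and 6.91, Fcgr1 read 3.06 and 3.87, against 5.25, 5.83 and 5.48, and Csf1r lay below 3.74 on all arrays but ITD598. Granulocyte markers (6 measured) averaged 4.06 on ITD613, 2.57 on ITD78, 4.74 on ITD598, 4.23 on ITD602 and 3.07 on ITD611, with Ltf and Csf3r below the filter on every array. Mast cell and basophil markers (6 measured) averaged 2.88, 1.82, 2.13, 2.05 and 2.08 in the same order, with Tpsab1, Cma1 and Ms4a2 below the filter on every array. All 6 measured lymphoid markers were below the filter on every array. The 10 myeloid progenitor markers averaged 4.73, 4.80, 5.26, 5.36 and 5.15 in the same order. Of the 7 that passed the filter, 5 were at least 0.3 lower on ITD613 (18.2% of all genes) and 1 was at least 0.3 higher (23.2%). Csf2rb read 6.71 on ITD613, against 7.00, 7.96, 8.39 and 8.54, whereas Myb read 9.91, against 9.34, 8.91, 9.09 and 9.09.

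Set against the promoter motif, the median ITD613 difference was 0.33 in the 21 genes with a match (range -0.16 to 1.20) and 0.32 in the 10 measured genes with an entry and no match (range -2.32 to 0.60).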

How the data were processed

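The authors deposited log2 values for 45101 probe sets on 5 arrays, which the submitters' processing notes trace to RMA (the probes of a set are corrected, brought to one distribution and summarised). Its software and chip definition are not given in the sources used here. That the base of the log is 2 was read from the values, which reach 13.45. Levels of different genes were not compared. No column was left without a sample (0). Probe sets with 1 gene symbol in the platform annotation (34945 after 64 control probe sets were left out) gave 18193 genes, each by its probe set with the highest mean, and 9621 had a highest value at or above the 60th percentile (2.75). Each array was set against the mean of the other 4 and described by fixed sizes (0.3 and 1 on the log2 scale, chosen here) and by rank. With 1 array per construct nothing was tested. Shifts put into simulated data were recovered, but these were larger than most differences described here. The simulated noise was that of ITD598 and ITD611, so the small differences were not covered. The 38 genes and all lists were chosen with earlier results of these data known. Named genes are the 37 measured ones and, per other list, the 3 with the widest range over the arrays; Foxm1 and Mybl2 were added. Symbols were updated through RefSeq (GRCm38.p6), and 14 listed genes had no probe set. Python 3.11.15 with pandas 2.3.3 and numpy 2.4.6 was used. The alternatives are given in the closing section.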

Additional observations from a re-analysis of the deposited data

How the results depend on the processing

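No paired analysis was possible because each construct has 1 array. A median or single-gene difference counted as unchanged where it moved by less than 0.10, the SD between ITD598 and ITD611. Counts were judged by their ratio, a loose limit. Under it, a fall from 21 to 14 genes at least 0.3 higher on ITD613 counted as unchanged. Of 385 summary values (medians and counts over the mitosis genes) compared with alternatives, 331 stayed within the limits set and 54 moved; of 2030 differences of single genes 1848 stayed, 181 moved and 1 that had been at least 0.3 in size turned its sign. In all the sign turned in 126, mostly of small differences, among them Bub3 on ITD613 (0.10 and, with probe sets averaged, -0.35). The 1 large one, Nek6 on ITD598, was 0.48 in the report's setting and -0.11 to 0.77 with 1 array left out (-0.11 without ITD613). The causes were not tested. Over all alternatives the median ranged from 0.19 to 0.32 on ITD613, -0.05 to 0.03 on ITD78, -0.08 to 0.02 on ITD598, -0.10 to -0.02 on ITD602 and -0.15 to -0.04 on ITD611. With all probe sets of a gene averaged, the ITD613 median was 0.19, 0 genes were at least 2-fold higher, 14 were at least 0.3 higher, 4 were at least 0.3 lower and 5 were lowest. That setting made ITD78 highest in 6 and lowest in 7 genes, put 0 genes at least 0.3 higher and 1 lower on ITD598 with 4 lowest, made ITD602 highest in 3 and left 1 at least 0.3 lower on ITD611. Without probe sets that may match several transcripts, ITD598 had 4 genes at least 0.3 lower, 1 highest and 4 lowest, and ITD611 had 0 highest. Against the median of the other arrays, 0 genes were at least 0.3 higher on ITD598 and 0 lower on ITD611. With arrays shifted to equal medians, 11 genes were at least 0.3 higher on ITD613, 1 was at least 0.3 lower on ITD78, ITD78 was highest in 4, ITD598 lowest in 3 and ITD611 highest in 3. Leaving out 1 array at a time gave 17 to 21 genes at least 0.3 higher and 1 to 2 lower on ITD613, which was highest in 27 to 30. It gave 0 to 5 higher and 1 to 3 lower on ITD78, highest in 1 to 15 (15 without ITD613) and lowest in 11 to 14. On ITD598 it gave 1 to 2 higher, 0 to 4 lower, 2 to 4 highest and 1 to 6 lowest. On ITD602 it gave 0 to 1 at least 2-fold higher, 3 to 9 at least 0.3 lower, 6 to 11 highest and 12 to 16 lowest. On ITD611 it gave 0 to 1 at least 2-fold higher, 0 to 1 at least 0.3 higher, 0 to 7 lower, 1 to 4 highest and 9 to 16 lowest. Signal near the shared low values limits Nek6 on ITD613 and the minor probe sets.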
